A study of Mus musculus with 8 samples.

Results

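Transcript levels of 10 transcription factors known for the endothelium were followed in lymphatic endothelial cells of inflamed and resting mouse ear skin. The genes (Sox18, Sox17, Sox7, Klf2, Klf4, Erg, Fli1, Ets1, Nr2f2 and Gata2) were given as a list, and they are 10 of the 18193 genes that a probe set of the array named alone. All probe sets naming 1 of them alone were taken, 24 of 45037. More than 1 such probe set measured 8 of the genes, and Nr2f2 had 6. The cells were sorted from ears of female FVB mice of 8 to 10 weeks by flow cytometry as CD31-positive, podoplanin-positive and CD45-negative. The inflamed group is a contact hypersensitivity model. Oxazolone, a hapten, was applied at 2% to the abdomen and paws for sensitisation, and after 5 days both sides of the ears received 1% oxazolone, 10 µl per side, and were collected 24 hours later. The untreated group came from healthy mice, for which the labels name no vehicle. Each group held 4 samples of 3 pooled mice, in 4 pairs of an untreated and an inflamed sample that shared their day of sorting and extraction. The pairs had been selected for the quality of the material. The question is how the expression of these factors differs between the 2 states of the skin.

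Endothelial cells keep their identity through a small set of DNA-binding proteins. The SOXF proteins SOX18, SOX17 and SOX7 share an HMG box and shape blood and lymphatic vessels, and SOX18 switches on Prox1, the regulator of lymphatic fate, in the embryonic vein. The Krüppel-like zinc finger proteins KLF2 and KLF4 are induced by flowing fluid and hold the endothelium in a quiet, anti-inflammatory state. The ETS proteins ERG, FLI1 and ETS1 bind enhancers of most endothelial genes, the nuclear receptor NR2F2 (COUP-TFII) sets venous identity and partners PROX1, and the zinc finger protein GATA2 is needed for lymphatic valves.

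The flow pathway to Klf2 runs through the kinases MEKK2 or MEKK3, MEK5 and ERK5 to MEF2 factors, which are known to act on the Klf2 promoter. The RefSeq promoter table (GRCm38.p6) had entries for 5 of the 10 members, Klf2, Klf4, Erg, Nr2f2 and Gata2, with 8 windows. It held no entry for Sox18, Sox17, Sox7, Fli1 and Ets1. The 250 bases before the start of Klf2 (chr8:72318812-72319061, plus strand) are shown because this member has a known signal-response site there. Those of Nr2f2 (chr7:70366747-70366996, minus strand) are shown because it was called lower on 1 of its 6 probe sets. Capitals mark matches on either strand to the MEF2 consensus, the KLF core CACCC or the ETS core GGAAG, and no marked matches overlap.
Klf2: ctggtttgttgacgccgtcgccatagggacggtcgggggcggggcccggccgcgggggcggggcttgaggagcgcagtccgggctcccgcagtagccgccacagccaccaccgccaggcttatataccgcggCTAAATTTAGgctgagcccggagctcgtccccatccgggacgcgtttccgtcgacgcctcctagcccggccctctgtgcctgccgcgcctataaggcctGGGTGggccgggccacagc
Nr2f2: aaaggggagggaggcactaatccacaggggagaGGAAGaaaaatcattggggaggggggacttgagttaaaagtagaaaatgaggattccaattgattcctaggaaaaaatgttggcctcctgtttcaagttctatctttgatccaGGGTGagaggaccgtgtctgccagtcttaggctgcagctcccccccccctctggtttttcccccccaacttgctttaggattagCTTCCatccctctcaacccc
In Klf2 the MEF2 match began 118 bases before the start, and 1 of the 3 Erg windows held the other match among the members, 16 bases before its start. Of all 32851 windows of this length, 2.92% held this motif, 52.0% the KLF core and 64.1% the ETS core. A SOX core, AACAAT, and a GATA core, AGATAA, were also searched on both strands. They were in 9.42% and 9.99% of all windows and in neither window shown. A match describes the letters and is not evidence of binding.

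The arrays measured lymphatic endothelial cells in both groups, and markers of other cell types differed between the groups. All 7 lymphatic markers on the array and all 11 pan-endothelial markers were above background on all 8 arrays. A probe set counted as above background where it exceeded the 95th percentile of the 27 bacterial controls of its own array, a log2 signal of 2.53 to 3.31. Mean signals were 126.2 to 160.4 per array. The summed signal of the lymphatic markers was 21820 to 28303 in untreated and 12068 to 20811 in inflamed samples, lower in all 4 pairs, and that of the pan-endothelial markers 9668 to 17528 and 6962 to 14855, lower in 3. Sums of the 10 neutrophil markers (32.1 to 73.6 against 704.4 to 1663), the 10 monocyte and macrophage markers (484.4 to 1188 against 882.5 to 3479), the 7 pan-leukocyte markers (143.7 to 735.0 against 1266 to 6487) and the 9 fibroblast markers (4384 to 18358 against 9976 to 22288) were higher in the inflamed sample of all 4 pairs. Of the neutrophil markers, S100a8 and S100a9 were called higher, and the other 8 were under the filter on dim probe sets. S100a8 and S100a9 passed it only through their inflamed levels. Of 8 fibroblast markers tested, 1 was called higher (Lum), and Fbln1 was at -0.27. Among 7 monocyte and macrophage markers tested 1 was called higher (Ctss), and among 5 pan-leukocyte markers 2 (Cd53 and Fcer1g). In these 3 lists 0 were called lower, and Cd53 and Fcer1g passed the filter only through their inflamed levels. The 9 blood endothelial markers went both ways. Their sum (2209 to 4442 against 1260 to 3006) was lower in all 4 pairs, while of the 8 tested 3 were called lower (Aqp1, Efnb2 and Gpihbp1) and 1 higher (Car4, with 1 of 4 untreated arrays above background), and their mean log2 signal was higher in 3 pairs. The sums of the 9 keratinocyte markers (1068 to 4571 against 184.6 to 1343) and the 6 T cell markers (43.4 to 108.4 against 22.2 to 89.5) were lower in 3 pairs. That of the 8 pericyte and smooth muscle markers went both ways, 206.6 to 1956 against 440.4 to 628.4. Among the 7 keratinocyte markers tested, 4 were called lower (Krt2, Krt15, Krt10 and Krt5) and 0 higher, with a median change of -3.53. The mean log2 signal of these 7 was lower in all 4 pairs. Krt2, Krt15 and Krt10 passed the filter only through their untreated levels, and Car4 only through its inflamed level. The neutrophil marker Ltf and the smooth muscle marker Cnn1 were under background on every array, and the leukocyte gene Ptprc (CD45) was under it on all 4 untreated and above it on 3 of 4 inflamed arrays. Transcript coverage, as Gapdh 3' minus 5' control probe sets in log2, was 3.40 to 4.16 in untreated and 2.58 to 3.30 in inflamed samples, and for Actb it lay between -0.15 and -0.00081 on all arrays. The part of these differences in the results on the transcription factors was not tested, and fewer cells of a type and less RNA per cell cannot be told apart in such samples.

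Of the 10 factors, Sox18 fell in inflamed samples and the other 9 did not pass the test. At an adjusted p under 0.05 (limma, Benjamini-Hochberg adjustment over 10843 genes), 1 of 10 members was lower and 0 were higher, against a background of 3.02% of all genes called lower and 3.91% called higher (6.94% in either direction). At an unadjusted p under 0.05 there were 4 members, all lower: Sox18, Sox17, Erg and Nr2f2. Such p-values were common, since 1987 of the 10843 genes had a limma p no higher than that of Erg (0.0333), the highest of these 4 members. These 4 were also the members lower in all 4 pairs, a pattern that 15.5% of all genes showed, and 0 members were higher in all 4 pairs, against 13.6% of all genes. The median change of the 10 members was -0.31 on the log2 scale, beside -0.087 over all genes tested. The array medians of log2 signal were also lower in inflamed samples, at 3.27 to 3.44 against 3.56 to 3.74 in untreated ones. The part of this in the changes cannot be told apart from the group difference. All members passed the filter on dim probe sets through their brightest probe set, Sox17 only because of its level in untreated samples. Changes are mean log2 signal of inflamed minus untreated samples over 4 pairs, and levels of different probe sets cannot be compared with each other.

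**Figure D1:**
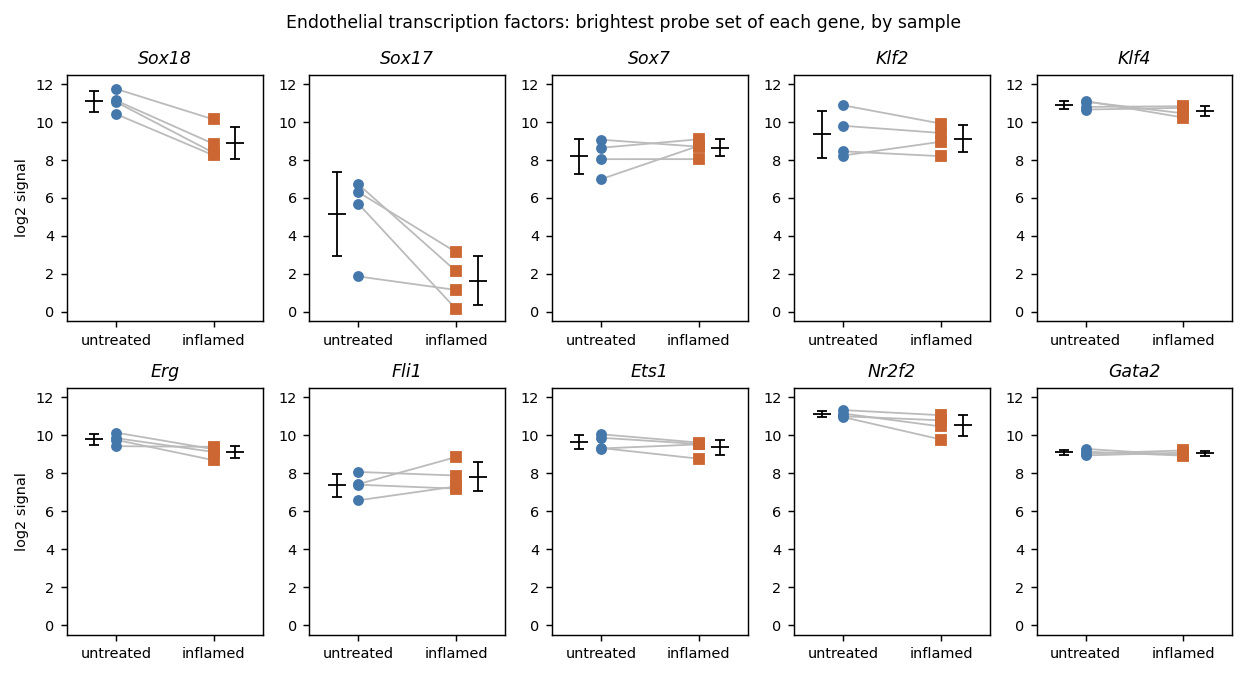
Log2 signal of the brightest probe set of each of the 10 genes in 4 untreated (circles) and 4 inflamed (squares) samples, with grey lines joining the samples of a pair and black bars giving the mean ± SD. Sox18 lay at 10.42 to 11.75 in untreated and 8.24 to 10.13 in inflamed samples, Sox17 was near background in most inflamed samples, and the other genes overlapped or nearly met between the groups.

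Among the SOXF genes, Sox18 stood at log2 signals of 10.42, 11.06, 11.14 and 11.75 in untreated samples 1 to 4, against 8.24, 8.37, 8.85 and 10.13 in inflamed samples 1 to 4. Every untreated sample was above every inflamed one, as for 6.84% of all genes in this direction and 6.30% in the other, and pair 4 was the highest in both groups. The changes within pairs were -2.18, -2.69, -2.29 and -1.61, and their mean was -2.19 ± 0.24 (SE, adjusted p = 0.00121, n = 4 pairs), a 4.57-fold difference. The call ended without the intensity trend of the variance model (adjusted p = 0.0645), and over the 13 alternatives the change was -2.39 to -1.89 and the adjusted p 0.000597 to 0.0645. Sox18 was measured by 1 probe set.

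Sox17, which is known above all from arterial endothelium, had log2 signals of 6.72, 6.31, 5.70 and 1.87 in the untreated samples 1 to 4, against 2.14, 3.14, 0.14 and 1.16 in the inflamed ones. Untreated samples 1 to 3 were well above all inflamed ones, while untreated sample 4 lay under background and within the range of the inflamed group. Of the 4 arrays of a group, 3 untreated and 1 inflamed were above background. The difference of -3.50 ± 0.97 (SE) did not pass (adjusted p = 0.0636; 95% interval -5.68 to -1.33). Because 3 of 4 inflamed values lay under background, its size was not measured, and it ran from -1.65 with log2(signal + 16) to -4.43 without pair 4 over 9 alternatives. The fit without pair 4 was the one with an adjusted p under 0.05 (0.0353, against up to 0.231), and it too rests on inflamed values under background. This probe set, 1429177_x_at, carries the suffix that marks probes able to bind related sequences, and the other, 1421657_a_at, was under the filter, at 1.67 to 3.62 in untreated and 0.13 to 3.06 in inflamed samples. 

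Sox7, the third gene of the group, gave opposite signs on its 2 probe sets. On the brighter, untreated samples had log2 signals of 6.99, 8.64, 9.07 and 8.04 and inflamed samples 8.74, 9.09, 8.70 and 8.05, a difference of 0.46 ± 0.42 (SE, adjusted p = 0.579; 95% interval -0.48 to 1.40). On the dimmer, 1416564_at, the groups lay at 7.34 to 7.71 and 6.77 to 7.39, a difference of -0.39 ± 0.44 (SE, adjusted p = 0.686 over 22519 probe sets). The value of the brighter one rested on pair 1, with 0.027 without it, and the average of both probe sets gave 0.034. The groups overlapped on both, and the intervals leave room for a rise or a fall of Sox7 but not for a fall as large as that of Sox18.

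Klf2 differed more between the pairs than between untreated and inflamed samples. Its log2 signals were 8.24, 9.80, 8.46 and 10.88 in the untreated samples 1 to 4, against 8.96, 9.42, 8.20 and 9.92 in the inflamed ones. Pairs 2 and 4 were high in both groups and pairs 1 and 3 low in both, with pair means of 8.60, 9.61, 8.33 and 10.40, a range of 2.07. The SD of the untreated samples was 1.24, while the median over the 2819 genes with a mean untreated log2 signal of at least 8 was 0.43 and their 95th percentile 1.12. The difference between the groups was -0.22 ± 0.32 (SE with the pair as a block, adjusted p = 0.754; 95% interval -0.95 to 0.51), and its SE was 0.56 without the block. Its sign turned under median centring (0.086) and without pair 4 (0.031). The samples of a pair shared a day of sorting and extraction and an age (9, 8, 8 and 10 weeks in pairs 1 to 4) but were separate pools of mice. Day, age and mice cannot be told apart. Over all genes tested, the deviations of paired samples from their group means correlated little, at 0.16, -0.0012, 0.082 and 0.032 in pairs 1 to 4.

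Klf4, induced by the same stimuli, varied little on its brighter probe set, at 10.66, 11.10, 11.07 and 10.79 without treatment, against 10.75, 10.23, 10.46 and 10.83 in inflamed ears. Inflamed samples 2 and 3 were below the untreated group and samples 1 and 4 within it. The difference was -0.34 ± 0.21 (SE, adjusted p = 0.396; 95% interval -0.81 to 0.13), and it was -0.035 under median centring. Its dimmer probe set, 1417395_at, gave -0.50 ± 0.25 (SE, adjusted p = 0.287). The pair means of Klf4 lay within 0.14 of each other on the brighter probe set, against 2.07 for Klf2.

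Of the ETS genes, Erg was lower on both probe sets but did not pass. On the brighter, 1440244_at, untreated samples 1 to 4 had log2 signals of 10.14, 9.85, 9.76 and 9.43 and inflamed samples 9.27, 9.12, 8.69 and 9.39. The groups did not overlap, with 9.43 against 9.39 at the closest, and the difference was -0.68 ± 0.27 (SE, adjusted p = 0.182; 95% interval -1.29 to -0.067). On 1425370_a_at they were 8.51, 9.00, 8.54 and 8.91 against 6.49, 8.09, 7.96 and 7.28, also without overlap, a difference of -1.29 ± 0.39 (SE, adjusted p = 0.0957 over all probe sets). Pair 4 had nearly no difference on the brighter probe set (-0.034) and one of -1.62 on the other. Averaged over both probe sets the difference was -0.98 (adjusted p = 0.0505, the lowest of 13 alternatives, whose highest was 0.475), and under median centring the brighter one gave -0.37.

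Fli1 and Ets1, neighbours on mouse chromosome 9 among the protein-coding genes of RefSeq (GRCm38.p6), overlapped between the groups on every probe set. Fli1, a partner of ERG in keeping endothelial identity, lay at 6.58 to 8.07 in untreated and 7.19 to 8.86 in inflamed samples on its brighter probe set, a difference of 0.44 ± 0.46 (SE, adjusted p = 0.633; 95% interval -0.59 to 1.47). The other, 1433512_at, gave -0.088 ± 0.46 (SE), and it became the brighter one without pair 3 or pair 4, which turned the sign. Ets1, which acts in growing vessels and in leukocytes, lay at 9.30, 9.87, 9.33 and 10.06 in the untreated samples, against 9.52, 9.54, 8.77 and 9.62 in the inflamed ones, a difference of -0.28 ± 0.26 (SE, adjusted p = 0.584; 95% interval -0.85 to 0.30) that turned to 0.025 under median centring. Over the 4 probe sets of Ets1 the differences ran from -0.34 to 0.17.

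**Figure D2:**
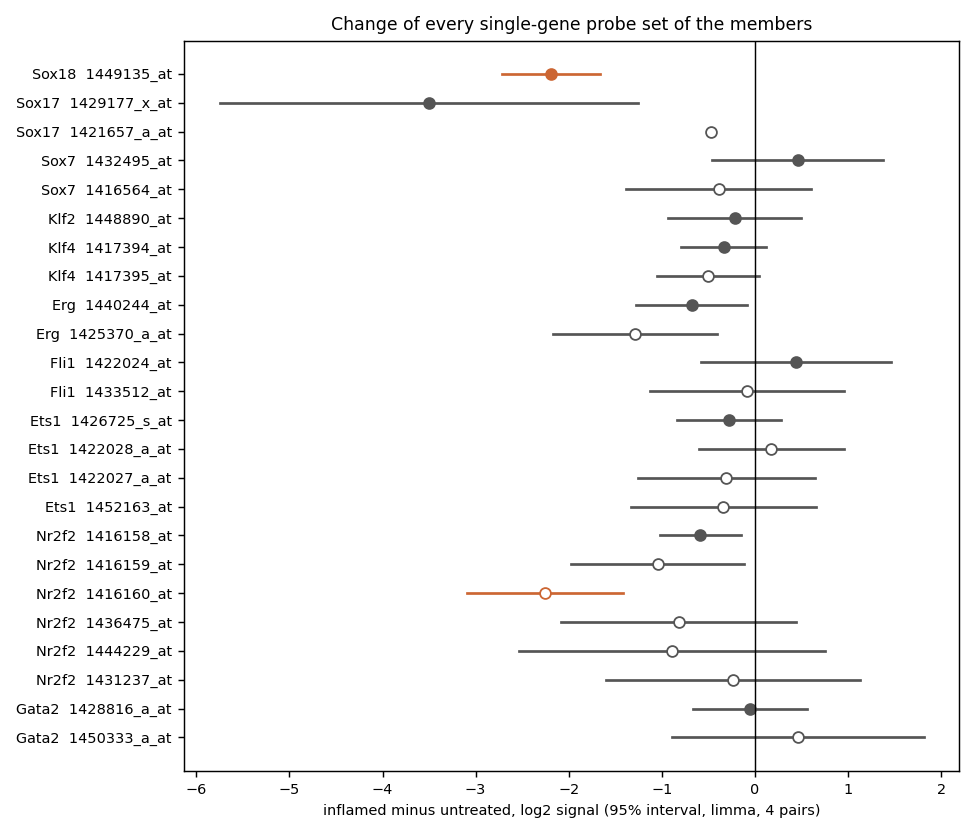
Change of each of the 24 probe sets on the log2 scale (inflamed minus untreated), with filled circles for the brightest probe set of a gene, open circles for the others, bars for the 95% interval of the limma fit over 22519 probe sets, and orange for an adjusted p under 0.05. Sox18 at -2.19 and the Nr2f2 probe set 1416160_at at -2.26 are orange, and the Sox17 probe set under the filter has no interval.

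Nr2f2 had a lower inflamed mean on all 6 of its probe sets but passed the test on 1, and the size of the difference depended on the probe set. On the brightest, 1416158_at, untreated samples 1 to 4 had log2 signals of 10.96, 11.15, 11.01 and 11.33 and inflamed samples 9.78, 10.46, 10.79 and 11.06. All 4 pairs were lower, inflamed sample 4 lay within the untreated range, and the difference of -0.59 ± 0.20 (SE) did not pass (adjusted p = 0.122; 95% interval -1.04 to -0.14). It passed under quantile normalization (-0.79, adjusted p = 0.0412, the lowest of 13 alternatives, whose highest was 0.467). It was -0.28 under median centring, -0.39 without pair 1 and -0.97 averaged over the probe sets. On 1416160_at, which the platform annotation assigns to the same source sequence, the values were 9.51, 10.30, 10.35 and 9.95 against 6.07, 7.85, 8.58 and 8.58. Here the groups lay apart, with 9.51 against 8.58 at the closest, and the mean fell by 2.26 ± 0.38 (SE, adjusted p = 0.00900 over all probe sets), a 4.79-fold difference. The call ended without the intensity trend (adjusted p = 0.125) and without pair 2 (0.0501), and the lowest adjusted p over 12 alternatives was 0.00541. 

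The other 4 probe sets of Nr2f2 gave differences of -0.23 to -1.05, and none passed. On 1416159_at, of the same source sequence, inflamed sample 1 stood at 6.52 and the other 3 inflamed samples at 9.00 to 9.12, against 9.08 to 9.83 in untreated samples. Inflamed sample 1 was the lowest of its group on 4 of the 6 probe sets, and without pair 1 the difference of 1416160_at was -1.87 (adjusted p = 0.0365). Of all 23 member probe sets tested, 2 were lower and 0 higher at an adjusted p under 0.05, beside 2.42% and 3.18% (5.60% in either direction) of the 22519 probe sets tested. The groups did not overlap on 4 of the 23 (Sox18, both of Erg and 1416160_at), all lower, beside 6.59% of all probe sets lower and 5.62% higher.

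**Figure D3:**
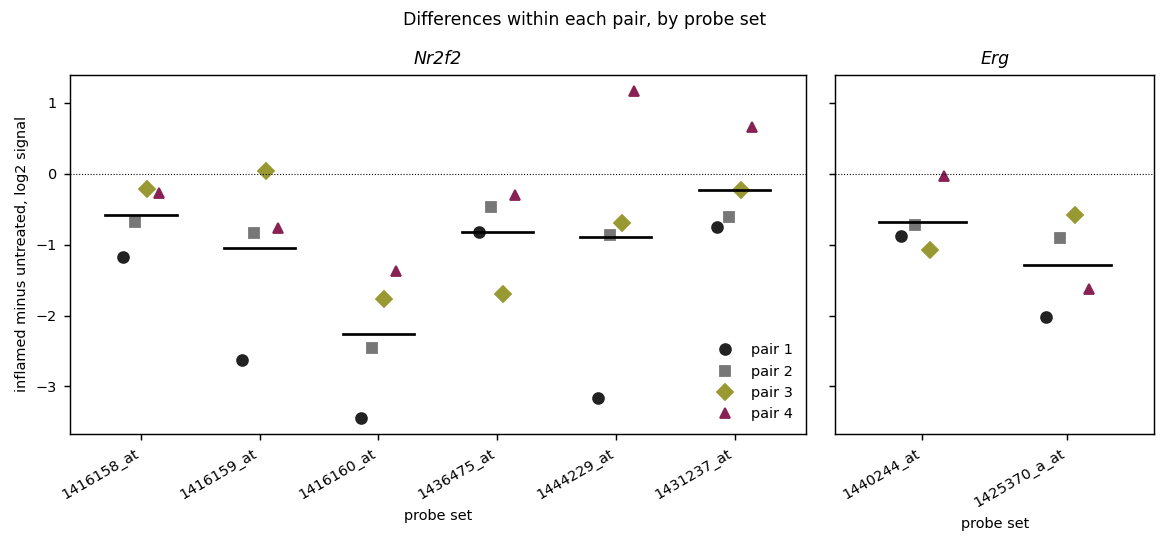
Inflamed minus untreated log2 signal within each of the 4 pairs (symbols) and its mean (black lines) for the 6 probe sets of Nr2f2 and the 2 of Erg, in order of brightness from the left. On 1416160_at all 4 pairs lay between -3.44 and -1.37, whereas on 1416158_at they lay between -1.18 and -0.22.

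Gata2 was nearly level on its brighter probe set. It had log2 signals of 9.14, 8.94, 9.04 and 9.29 in the untreated samples, against 8.93, 9.09, 9.20 and 8.96 in the inflamed ones, so the groups overlapped and 2 pairs went each way. The difference was -0.058 ± 0.28 (SE, adjusted p = 0.938; 95% interval -0.68 to 0.57), with an SD of 0.15 in untreated and 0.13 in inflamed samples, and its sign turned under median centring (0.25). The dimmer probe set, 1450333_a_at, spread from 6.15 to 9.14 in untreated and 7.35 to 8.53 in inflamed samples, a difference of 0.46 ± 0.61 (SE).

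Over the 8 arrays, the members' patterns were alike in few pairs. Pearson's r, given as a description over arrays that share the group difference, was 0.86 between Sox18 and Nr2f2, 0.89 between Klf2 and Ets1 and 0.89 between Sox17 and Erg, and -0.78 between Sox17 and Fli1. Sox17 was above background on only 3 of 4 untreated and 1 of 4 inflamed arrays. Its correlations therefore rest in part on values under background and do not measure likeness there. The 3 genes most like Sox18 over the 8 arrays were Mtss2 (r = 0.98), Prickle1 (0.97) and Dock11 (0.97). Mtss2 averaged 5.39 ± 0.60 in untreated and 2.31 ± 1.81 in inflamed samples (SD, n = 4; adjusted p = 0.0566, with 1 of 4 inflamed arrays above background). Prickle1 averaged 8.48 ± 0.20 and 7.36 ± 0.48 and Dock11 7.37 ± 0.21 and 6.33 ± 0.49, and neither passed.

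The relatives of the members were mostly without a call, as were most genes, of which 3.02% were called lower and 3.91% higher. Of 9 tested other SOX genes 1 was lower, and of 11 other KLF, 13 other ETS and 4 other GATA and NR2F genes 0 passed in either direction. The SOX gene was Sox4, a SOXC factor of progenitor and activated cells, which fell from 9.50 ± 0.45 to 5.86 ± 0.75 (SD, n = 4; adjusted p = 0.00327), and the groups did not overlap. Its difference was -3.64 on its brightest probe set and -2.40 averaged over its probe sets, where the call ended (adjusted p = 0.0696). The nearest to the threshold among the others were Klf9 at -0.58 ± 0.15 (SE, adjusted p = 0.0522), the ETS repressor Elk3 at 2.01-fold lower (0.0678) and Ets2, the neighbour of Erg on chromosome 16, at -0.64 ± 0.20 (0.0916). Under quantile normalization all 3 passed, and under median centring they were at -0.28, -0.70 and -0.34 with adjusted p-values of 0.415, 0.159 and 0.381.

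Of 22 other endothelial and lymphatic transcription factors tested, 4 were lower and 0 higher, beside 3.02% and 3.91% of all genes. Their median change was -0.60. Hey1, a Notch target and repressor, fell from 8.55 ± 0.88 to 5.93 ± 1.15 (SD, n = 4; adjusted p = 0.0109). Nfatc1, which acts in valve formation, fell from 10.37 ± 0.47 to 8.62 ± 0.95 (adjusted p = 0.0141), Foxo1, linked to endothelial quiescence, from 10.01 ± 0.47 to 8.60 ± 0.52 (0.0170), and Lmo2, a bridging partner of GATA2 and TAL1, from 10.42 ± 0.14 to 9.15 ± 0.69 (0.0356). Foxo1 was at -0.56 averaged over its probe sets, without a call. The call of Lmo2 ended under median centring (adjusted p = 0.0840) and without any 1 of the pairs. The count of lower factors was 0 without pair 1 or pair 3, 2 without pair 2 or pair 4, and 0 without the intensity trend. Prox1, target of SOX18 and partner of NR2F2, averaged 11.17 ± 0.18 and 9.73 ± 1.38 and did not pass (adjusted p = 0.0618). It passed under quantile normalization (-1.63), with log2(signal + 16), with the stricter filter and averaged over its probe sets (-1.86), and over 13 alternatives its adjusted p ran from 0.00851 to 0.255. The sort genes Pecam1, at 10.50 ± 0.10 and 9.78 ± 0.85, and Pdpn, which differed by 0.56 ± 0.15 (SE), and the lymphatic marker Lyve1, at 12.14 ± 0.26 and 11.96 ± 0.31, did not pass (adjusted p = 0.188, 0.0605 and 0.467). Lyve1 passed as lower under quantile normalization (-0.49, adjusted p = 0.0437, against up to 0.821). Pdpn passed as higher under median centring (0.86, 0.0194, against up to 0.447), with log2(signal + 16), with the stricter filter and without pair 2.

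Upstream of Klf2, 0 of the 14 genes of the kinase cascade, the MEF2 factors, their deacetylases and the CCM proteins passed in either direction, with a median change of -0.68. Over all genes tested, 3.02% were called lower and 3.91% higher. The smallest p-values belonged to the kinase Map3k3 at -0.67 ± 0.22 (SE, adjusted p = 0.110), to Mef2c, a MEF2 factor, at -1.08 ± 0.36 (0.115, and 0.0333 averaged over its probe sets) and to Ccm2, an inhibitor of the cascade, at 2.02 ± 0.72 (0.136). Of 5 genes known to be induced by KLF2 or KLF4, 1 was higher and 2 lower. Thbd, the anticoagulant thrombomodulin, rose from 9.80 ± 0.30 to 10.93 ± 0.33 (SD, n = 4; adjusted p = 0.0112), a call that ended without pair 3, while the water channel Aqp1 fell from 10.31 ± 0.22 to 8.68 ± 0.43 (0.00593) and the receptor kinase Tek from 8.91 ± 0.27 to 7.44 ± 0.70 (0.0460). The call of Tek ended without any 1 of the pairs and without the pair block (adjusted p = 0.0563). It also ended under median centring, without the filter and without the intensity trend, and it held in 5 of 13 alternatives. Of 4 tested genes known to be repressed by them, 2 were higher: the chemokine Ccl2, from 4.74 ± 1.01 to 10.45 ± 0.76 (0.00129), and the cytokine Il6, at least 12.04-fold higher, against the mean background ceiling, with 0 of 4 untreated arrays above background (0.00454). Il6 passed the filter on dim probe sets only through its inflamed level, so its place among the tested genes depended on its rise. Leukocytes and fibroblasts also make Ccl2 and Il6, and their marker sums were higher in the same samples, whose part in these values was not tested.

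The lists of genes bound or controlled by the other members overlap with one another, so that Prox1, Kdr, Tek, Angpt2, Efnb2 and Notch1 each stand in more than 1. They also share genes with the marker lists, among them Kdr, Tie1, Tek, Cldn5, Pecam1, Prox1, Nrp2 and Efnb2. The median change was -0.66 over the pan-endothelial (3 lower, 1 higher), -0.91 over the lymphatic (3 lower, 0 higher) and -0.0063 over the blood endothelial markers (3 lower, 1 higher). The part of this in the target lists was not tested. Of 16 targets of ERG, FLI1 and ETS1, 3 were lower and 1 higher (median change -0.57), beside 3.02% and 3.91% of all genes. The VEGF receptor Kdr fell from 10.64 ± 0.44 to 8.93 ± 0.52 (SD, n = 4; adjusted p = 0.00852) and the orphan receptor Tie1 from 9.42 ± 0.77 to 7.24 ± 0.78 (0.0141), beside Tek, while Angpt2, the ligand of the receptor that Tek encodes, rose from 8.96 ± 0.64 to 10.12 ± 0.43 (0.0287). The call of Angpt2 ended without the pair block (adjusted p = 0.0817), with the pair as a random block and without pair 1, pair 2 or pair 3. The count of lower targets was 1 without pair 1, pair 3 or pair 4.

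Beside 3.02% of all genes called lower and 3.91% called higher, 2 of 9 SOXF targets were lower and 0 higher (median change -0.95). These were the receptor Notch1, from 10.13 ± 0.56 to 8.28 ± 0.72 (SD, n = 4; adjusted p = 0.0214), and the ephrin Efnb2, from 10.31 ± 0.71 to 8.89 ± 0.45 (0.00940), and neither passed without pair 3. Averaged over its probe sets, Notch1 was at -1.06, without a call. Of 8 genes linked to NR2F2, 4 were lower and 0 higher (median change -1.43): Notch1, Efnb2, Hey1 and Nrp2, a co-receptor for lymphatic growth factors, which fell by 1.71 ± 0.25 (SE, adjusted p = 0.00450). Without pair 3, 1 of these was lower. Unlike the KLF lists, those linked to NR2F2 and GATA2 were not split into induced and repressed genes. Their counts therefore do not show whether a gene moved in the direction that a change of the factor would predict. Of 13 genes linked to GATA2, 4 were lower and 1, Angpt2, was higher (median change -1.22). The lower ones were Kdr, Nfatc1, Lmo2 and the valve integrin Itga9, which was named after its values were seen and went from 10.25 ± 0.71 to 8.82 ± 0.54 (0.0472). The count of lower genes was 1 without pair 1 or pair 2, and 2 without pair 3 or pair 4. Of the 17 genes of these lists with a call that are named here, 3 (Sox4, Ccl2 and Il6) passed without the intensity trend.

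**Figure D4:**
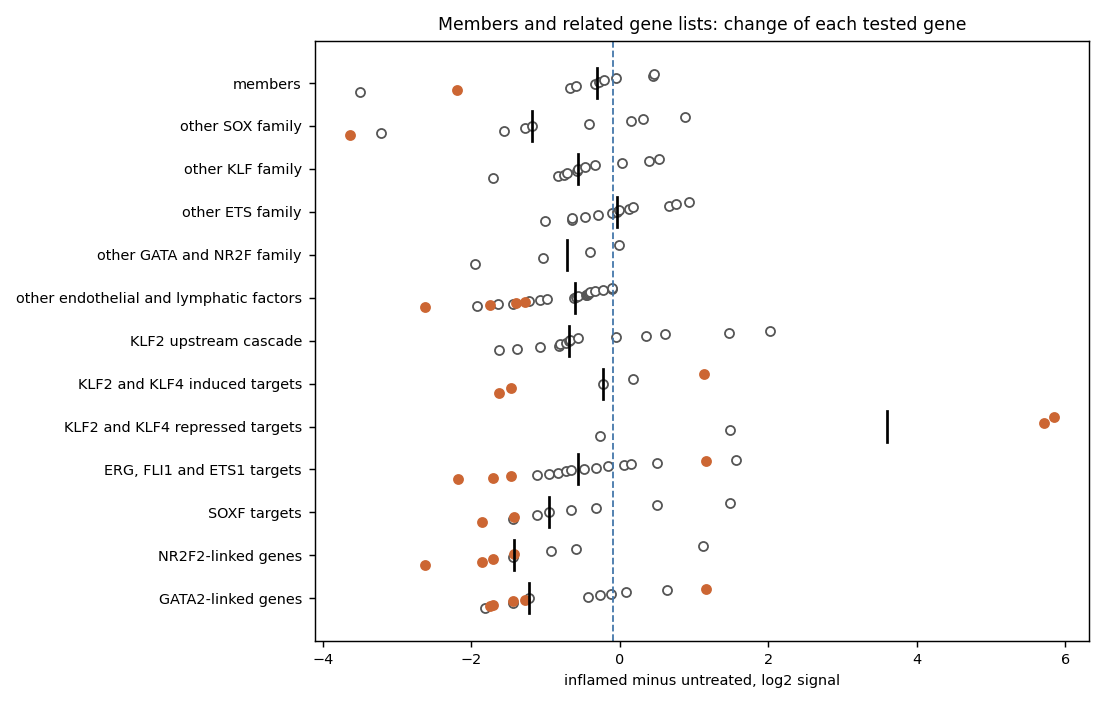
Change of each tested gene on the log2 scale (inflamed minus untreated) for the members and for 12 related gene lists, with orange circles for an adjusted p under 0.05, open circles for the other genes, a black line at the list's median and a dashed line at the median of all 10843 genes (-0.087). Sox18 is the only orange member, and the orange genes of the target lists lie on both sides of 0. Il6, at the far right, is plotted at its measured difference although its untreated values were under background.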

How the data were processed

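The members and the gene lists were chosen with earlier results of these data known. Total RNA was amplified by linear isothermal amplification into biotin-labelled cDNA and hybridised to 8 arrays, per the labels' protocols. The deposited table holds 1 linear intensity per probe set and array, computed by the authors as MAS5 signals per the submitters' processing notes. Detection calls were not used, and the scaling target was not given in the sources used here. Of 45037 probe sets without the 64 controls, 34945 named 1 gene in GEO's platform annotation, 932 several and 9160 none. The authors' scaling was kept, since the medians of log2 intensity spanned 0.468 over the arrays and a limit of 0.5 had been set. These medians split by group, at 3.56 to 3.74 in untreated and 3.27 to 3.44 in inflamed samples. Median centring, 1 of the alternatives, sets them equal.

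The filter kept probe sets whose mean over all arrays reached the median of such means, 3.30 in log2. The brightest probe set represented a gene, and every probe set was also fitted by itself. Limma 3.58.1 in R 4.3.3 was run with an intensity trend and the pair as a block, two-sided, and tested on simulated data. The pairing comes from the series' text. Same-numbered samples' deviations correlated at 0.16, -0.0012, 0.082 and 0.032. P-values refer to pools of 3 mice. Named were all members, up to 4 genes per list with the smallest p, the 3 genes most like a called member, and Pecam1, Pdpn, Ptprc, Prox1 and Lyve1. Alternatives changed the block, scaling, pseudocount, filter (none, or a stricter one at a mean log2 signal of 6), trend and probe set rule or left out a pair.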

Additional observations from a re-analysis of the deposited data

Results flagged for a closer look

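Among 122 groups of 4 samples examined, 5 held a value far from the other 3. Chance gives such a value in about 1 of 20 groups. Nr2f2 on 1416159_at was 6.52 in inflamed sample 1, with the nearest of the others at 9.00. Sox17 on 1421657_a_at was 0.13 in inflamed sample 1, under background, with the nearest at 2.81. Ets1 on 1426725_s_at was 8.77 in inflamed sample 3, with the nearest at 9.52. Of the genes that are no members, Mef2c was 8.67 in untreated sample 1, with the nearest at 9.21, and Efnb2 was 8.21 in inflamed sample 1, with the nearest at 9.05.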

How the results depend on the processing

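The counts over all genes depended on several choices. Against 424 higher and 328 lower genes, median centring gave 719 higher and 227 lower (76.0% higher, against 56.4%) and moved the median change from -0.087 to 0.22, and fits without the intensity trend gave 94 and 47. Leaving out 1 pair gave 194 to 293 higher and 103 to 185 lower. Members called lower numbered 1, but 2 under quantile normalization (Sox18 and Nr2f2), 0 without the intensity trend, and 1 to 2 when a pair was left out; members called higher stayed at 0 in every alternative run. Without the replicate block, 384 genes were higher and 301 lower, and Sox18 kept its call (adjusted p = 0.00780); the block changed no call of a member.

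Under median centring the sign turned for Klf2 (0.086), Ets1 on 1426725_s_at (0.025), Gata2 on 1428816_a_at (0.25), Nr2f2 on 1431237_at (0.069), Fli1 on 1433512_at (0.22) and Lyve1 (0.12), by a shift of all genes. Averaging probe sets turned Gata2 (0.20) and Ets2 (0.15). Over the fits that left out a pair, Ets1 ran from -0.020 (without pair 1) to 0.48 on 1422028_a_at and from -0.71 to 0.037 (without pair 2) on 1422027_a_at. Gata2 ran from -0.17 (without pair 1) to 1.21 on 1450333_a_at and from -0.13 to 0.032 (without pair 4) on 1428816_a_at, Klf2 from -0.53 to 0.031 (without pair 4), and Fli1 on 1433512_at from -0.41 to 0.22 (0.037 without pair 2). Without pair 3 or pair 4 that probe set became the brighter one of Fli1, so that the gene ran from -0.41 to 0.66, with -0.20 without pair 3. No value with a turned sign passed the threshold, and where not stated the cause was not tested. The number of arrays limits the precision, and Sox17 lies near background.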
